A study of Mus musculus with 22 samples.

Results

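CD11b+ cells from the brains of 4 control pups collected on P7 were compared by litter, the pups P6H63-7 and P6H63-8 on one side and P6H55-7 and P6H55-12 on the other. These are 4 of the 22 bulk RNA libraries of the series and all its P7 controls. The litters were chosen by their level of the microglial genes P2ry12, Tmem119 and Cx3cr1, which was low in P6H63 and high in P6H55, so the difference between the litters is described here without a test. All pups were wildtype mice of the outbred CF-1 strain, labelled Control. By the study's methods their dams received saline late in gestation and the pups stayed in normal air on the day before collection. The 4 HIE pups of the same table (N5-3, N5-4, N8-3 and N8-4), also CF-1, came from dams given the bacterial product LPS and were exposed to hypoxia. At P14 by label the series holds 12 animals, also CF-1, 4 labelled HIE, 4 Control and 4 Hypoxia, with both sexes in each group by label. The paper gives P14 for its later collection, while the protocol entry for these animals gives P7.

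Pups with the same name prefix are called a litter, although the sources used here do not define the prefix. Each litter held 1 pup labelled male (pup 7 in both) and 1 labelled female. The labels give P8 and P9 for the P6H63 pups and P10 and P11 for the P6H55 pups, while the protocol gives P7 for all of them. The labelled day and the litter cannot be told apart. The library of P6H55-12 carries the suffix RNA2 and the other P7 libraries RNA1. Depth was alike, from 70191584 counts in P6H63-7 to 83469067 in P6H55-12. On these unscaled library totals, 3 counts correspond to 0.0427 CPM or less in each control library. The 2 pups of a litter show the spread within that litter only.

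CD11b is a subunit of an integrin carried by microglia and other myeloid cells. Cells that carry it are held on magnetic beads, while neurons, astrocytes and vascular cells are washed away, and what is not washed away adds its own RNA. Microglia are the resident macrophages of the brain, and they are recognised by the purinergic receptor gene P2ry12, the membrane protein gene Tmem119 and the fractalkine receptor gene Cx3cr1. In bulk RNA, fewer cells of a type and less RNA per cell cannot be told apart.

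P2ry12 stood at 250 CPM in P6H63-7 and 150 CPM in P6H63-8, against 2189 CPM in P6H55-7 and 2090 CPM in P6H55-12. For Tmem119 the values were 72.2 and 48.1 CPM in the P6H63 pups and 483 and 389 CPM in the P6H55 pups. Cx3cr1 gave 484 and 283 CPM in the first litter and 3498 and 3017 CPM in the second. The litters did not overlap for any of the 3 genes, and P6H63-8 was the lowest library each time. All 3 markers were therefore detected in every control library, none of them near 0. In the HIE pups P2ry12 ranged from 2227 to 2965 CPM around a median of 2453 CPM, above both control litters.

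Among 23524 genes that passed the filter on low counts, 3132 (13.3%) were at least 2-fold lower in P6H63 with no overlap between the litters, and 4458 (19.0%) were at least 2-fold higher. These genes are called lower and higher below, and because the litters were selected on microglial genes the shares are read as a description only. Differences are given as the mean log2 CPM of P6H63 minus that of P6H55. With library size alone as the scaling, the median of all genes moved from 0.00 to 0.31 and the calls split into 2157 lower and 6193 higher. The lower genes took 12.7% and 11.0% of all counts in P6H63-7 and P6H63-8, and 32.8% and 32.7% in P6H55-7 and P6H55-12. The higher genes took 17.4% and 19.0% in the P6H63 pups against 5.22% and 6.23% in the P6H55 pups. At the limit itself, Tmem170b (76.4 and 76.4 CPM against 160 and 146 CPM) was just inside the lower class and Herc2 (247 and 229 against 483 and 466 CPM) just outside it. On the higher side, Ndst1 (233 and 269 against 124 and 126 CPM) was just inside and Rgs5 (964 and 785 against 442 and 436 CPM) was among those just outside.

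**Figure D1:**
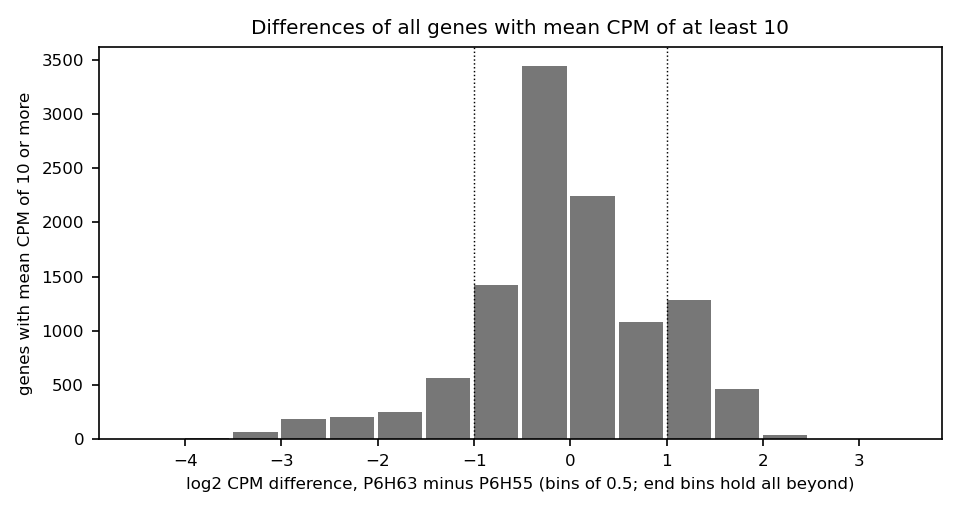
Number of genes (vertical axis) by log2 CPM difference, P6H63 minus P6H55, in bins of 0.5 (horizontal axis), for genes with a mean CPM of 10 or more; dotted lines mark the 2-fold limit. The lower side has a long tail, with 70 genes between -3.5 and -3, and the higher side has a second hump of 1282 genes between 1 and 1.5.

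The spread of the differences was not symmetric. Over 10999 protein-coding genes with a mean of at least 10 CPM, the lowest difference was -3.71 and the highest 2.38. Of these genes, 69 were lower by 3 or more on the log2 scale, 38 were higher by 2 or more and 0 were higher by 3 or more.

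All 16 genes of the microglia list were lower in P6H63, with a median difference of -2.96 (7.80-fold), and all 20 pan-myeloid genes were lower, with a median of -3.00 (8.01-fold). The median over all genes was 0.00. The microglial genes lay close together, from -3.51 for Siglech to -2.16 for Olfml3, and the quartiles were -3.15 and -2.68. Siglech, a sialic acid-binding receptor of microglia, gave 42.5 and 25.5 CPM in the P6H63 pups and 380 and 370 CPM in the P6H55 pups. Olfml3, a secreted protein, gave 54.4 and 41.3 CPM against 189 and 237 CPM. Both litters were under the lowest HIE value of Olfml3, 322 CPM. Among the pan-myeloid genes, Csf1r, the receptor on which microglia depend for survival, gave 651 and 406 CPM against 4843 and 4029 CPM. The difference was smallest for Lcp1, an actin-bundling protein of blood cells, at -2.19 (158 and 102 against 683 and 494 CPM).

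**Figure D2:**
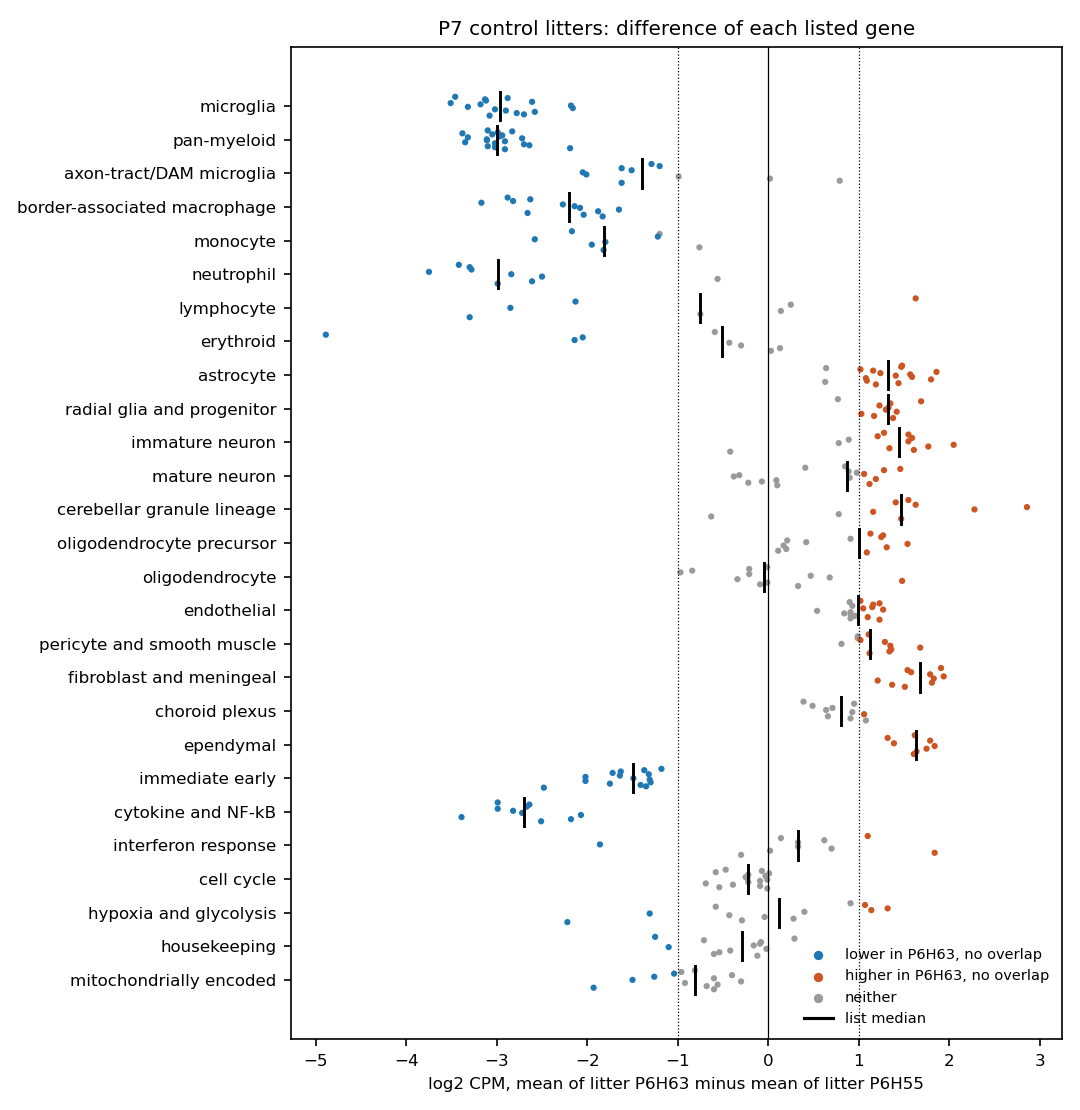
Log2 CPM difference between the litters (horizontal axis) for each gene of 27 lists (vertical axis); blue points are lower and orange points higher in P6H63 with no overlap between litters, grey points are neither, and black bars are list medians. The microglia and pan-myeloid lists sit near -3, and most lists of other brain cells sit between 0.8 and 1.7.

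Most genes of the other myeloid cells were also lower in P6H63. The 12 genes of border-associated macrophages, which live at the meninges and along vessels, were all lower with a median of -2.20, from Cd163 (-3.17) to Dab2 (-1.65). Mrc1, the mannose receptor of these cells, gave 294 and 210 CPM in P6H63 and 2127 and 1579 CPM in P6H55. Stab1, a scavenger receptor, gave 560 and 348 CPM against 2141 and 1227 CPM. Of 9 neutrophil genes, 8 were lower with a list median of -2.99. S100a8, a calcium-binding protein of neutrophils, gave 2.75 and 2.80 CPM against 26.3 and 34.2 CPM, and Ngp, a granule protein, gave 4.33 and 6.95 against 53.6 and 53.1 CPM. The exception was the matrix protease gene Mmp9, whose litters overlapped (46.7 and 29.3 against 80.5 and 36.8 CPM). Of 8 monocyte genes, 6 were lower with a median of -1.81. Ccr2, the chemokine receptor of blood monocytes, gave 1.90 and 2.27 CPM against 11.0 and 8.08 CPM, and this list took at most 0.00266% of the counts of any control library.

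Lymphocyte and red cell genes took little of the RNA, at most 0.0249% and 0.00473% of the counts of a control library. Of 12 lymphocyte genes, 7 passed the filter, of which 3 were lower and 1 higher, beside 13.3% lower and 19.0% higher over all genes. The higher gene, Cd3e, lay near the level of 3 counts in both P6H55 pups, so its call is uncertain. Ighm, the heavy chain of IgM, was among the lower genes, at 32.8 and 20.8 CPM against 268 and 249 CPM. Among 8 erythroid genes, 3 globin genes were called lower, and they rested on pup P6H55-12. Hba-a2, an alpha globin, was listed at 0.277 and 0 CPM in P6H63, 0.469 CPM in P6H55-7 and 14.3 CPM in P6H55-12. Near-identical globin genes share reads, so their separate values are uncertain.

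Genes of activated microglia and of recent stimulation lay on the microglial side by different amounts. In the list of axon-tract and disease-associated microglia, 7 of 10 genes were lower and the median was -1.40. Lpl, a lipoprotein lipase, had the lowest difference (-2.05), with 42.1 and 31.0 CPM against 153 and 147 CPM. Apoe, which carries lipids and is also made by astrocytes, gave 1265 and 1345 CPM against 3517 and 4570 CPM. Fabp5, a fatty acid-binding protein, was on the other side at 158 and 168 CPM against 92.0 and 95.7 CPM (0.79). All 10 genes of the cytokine and NF-kB list were lower with a median of -2.70, such as the chemokine gene Ccl3 with 84.8 and 46.6 CPM against 618 and 320 CPM. All 15 immediate early genes were lower as well, with a smaller median of -1.49. Among them, Fos gave 1459 and 1306 CPM against 3195 and 3066 CPM (-1.18), and Zfp36, which encodes a protein that shortens the life of cytokine mRNAs, gave 688 and 435 CPM against 3016 and 3072 CPM (-2.48).

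Astrocytes, radial glia and ependymal cells lay on the opposite side. Of 16 astrocyte genes, 14 were higher in P6H63 and none was lower, with a median of 1.32 (2.50-fold). Gfap, the intermediate filament of astrocytes, gave 1561 and 1754 CPM in P6H63 and 382 and 543 CPM in P6H55. Aqp4, the water channel of astrocyte endfeet, gave 929 and 1104 CPM against 307 and 431 CPM. The 2 astrocyte genes below the limit were Slc1a2 (0.64) and Cldn10 (0.63). Of 10 radial glia and progenitor genes, 9 were higher with a median of 1.32, including Pax6, a transcription factor of neural progenitors (84.3 and 96.9 against 21.7 and 36.3 CPM). All 8 ependymal genes were higher, with a median of 1.63 and a narrow range from 1.32 to 1.84. Foxj1, the master regulator of motile cilia, gave 319 and 347 CPM against 90.0 and 131 CPM.

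**Figure D3:**
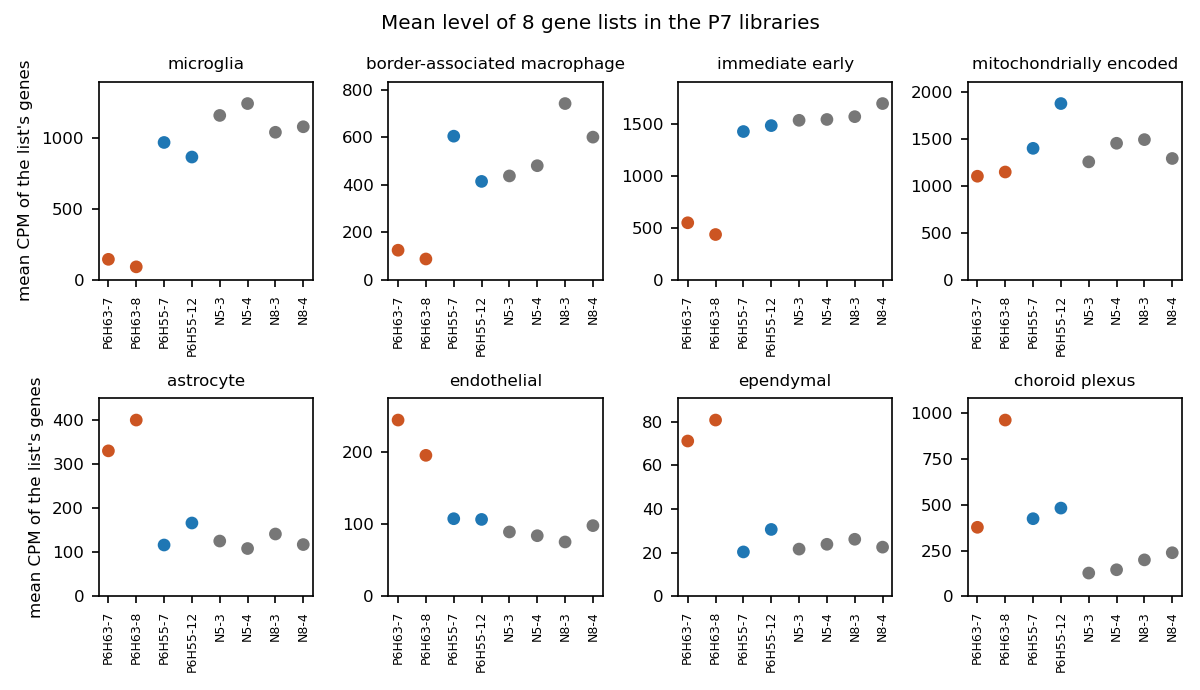
Mean CPM over the genes of 8 lists (vertical axes, each starting at 0) in the 8 P7 libraries, with P6H63 in orange, P6H55 in blue and HIE pups in grey. The microglia list averaged 146 and 92.8 CPM in the P6H63 pups against 972 and 869 CPM in the P6H55 pups, and the choroid plexus list was highest in P6H63-8 at 964 CPM.

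Beside 19.0% of all genes called higher, 9 of 12 immature neuron genes were higher, with a median of 1.45. Of 16 mature neuron genes, 5 were higher and 11 were in neither class, with a median of 0.87. The difference between these lists was not tested, and the called mature genes Map2 (1.28) and Rbfox3 (1.46) lay at the level of the immature ones. Igfbpl1, a gene of newborn neurons, gave 94.6 and 117 CPM in P6H63 and 20.1 and 32.1 CPM in P6H55. Map2, a microtubule protein of dendrites, gave 214 and 286 CPM against 83.5 and 125 CPM. The litters overlapped for Camk2a, a kinase of mature excitatory synapses (6.27 and 13.6 against 11.4 and 12.6 CPM). Of 9 genes of the cerebellar granule lineage, 7 were higher with a median of 1.47. Atoh1, the transcription factor of granule cell precursors, had the highest difference of all listed genes (2.86), at 11.4 and 13.7 CPM against 1.17 and 2.45 CPM. Gabra6, a receptor subunit of mature granule cells, stayed at or below 0.312 CPM in all 4 libraries. How much of the cerebellum entered each preparation is not given in the sources used here, and its part in these values was not tested.

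In the oligodendrocyte lineage the lists of precursors and of mature cells are given side by side, and the difference between them was not tested. Of 12 precursor genes, 6 were higher with a median of 1.00 and a lowest value of 0.11 for Enpp6, and the called genes included Pdgfra, the growth factor receptor of precursors (112 and 146 against 50.3 and 67.9 CPM). Of the 12 oligodendrocyte genes that passed the filter, 1 was higher, beside 19.0% of all genes, and the median was -0.05. Mbp, the myelin basic protein gene, gave 113 and 166 CPM in P6H63 and 130 and 146 CPM in P6H55, so the litters overlapped. Mag, another myelin gene, was at 9.66 and 14.1 CPM against 23.5 and 22.4 CPM (-0.97), on the microglial side of 0. Cldn11, which forms tight junctions in myelin and in the meninges, was the gene called higher (85.9 and 115 against 35.2 and 36.1 CPM).

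Genes of vessels and meninges all lay above 0, but not all of them were called higher. Of 16 endothelial genes, 8 were higher with a median of 0.99. Kdr, a VEGF receptor, gave 672 and 537 CPM against 271 and 266 CPM. Of 11 pericyte and smooth muscle genes, 8 were higher with a median of 1.12. Acta2, the actin of smooth muscle, gave 108 and 118 CPM against 38.3 and 32.2 CPM. All 10 fibroblast and meningeal genes were higher, with the largest list median of 1.68. Lum, a proteoglycan of connective tissue, gave 32.0 and 32.1 CPM against 9.12 and 7.59 CPM, and Col1a2, a collagen chain, gave 696 and 743 CPM against 246 and 248 CPM.

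Choroid plexus genes followed the pup more than the litter. Only 1 of 10 was called higher, beside 19.0% of all genes. The median of 0.81 rested on P6H63-8, since it was 0.27 without that library and 1.37 without P6H63-7. Ttr, which encodes the thyroid hormone carrier secreted by the choroid plexus, gave 3468 CPM in P6H63-7, 8978 CPM in P6H63-8, 4013 CPM in P6H55-7 and 4531 CPM in P6H55-12. All 4 control pups were above the HIE pups, whose highest Ttr value was 2223 CPM.

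Within litter P6H63, which the choice of litters did not compare, P6H63-8 had less microglial RNA than P6H63-7, with a median difference of -0.73 over the microglia list and -0.68 over the pan-myeloid list. The medians for genes of astrocytes (0.31), immature neurons (0.54) and oligodendrocytes (0.52) were on the side of P6H63-8. Those for endothelial genes (-0.33) and pericyte genes (-0.22) were below 0, in the same direction as the microglial genes. In litter P6H55, the microglia list differed by -0.19 and the astrocyte list by 0.48, pup 12 minus pup 7. These are differences between single libraries with no replicate check.

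General processes differed less. None of 16 cell cycle genes was called in either direction, and the median of -0.22 became 0.10 with library size alone. Mki67, a marker of dividing cells, gave 393 and 353 CPM against 547 and 485 CPM. The housekeeping list had a median of -0.29, which became 0.03 with library size alone, with Actb called lower (4874 and 4148 against 11817 and 9733 CPM) and the litters overlapping for Gapdh (604 and 453 against 465 and 394 CPM). Of 12 hypoxia and glycolysis genes, 2 were lower and 3 higher with a median of 0.12, beside 13.3% lower and 19.0% higher over all genes. Hk2, a hexokinase, gave 55.9 and 42.3 CPM against 245 and 211 CPM (-2.22), and Car9, a carbonic anhydrase induced by hypoxia, gave 15.8 and 19.5 CPM against 8.03 and 6.11 CPM (1.32). Of 10 interferon response genes, 1 was lower and 2 were higher with a median of 0.33, beside the same shares over all genes. Mx1 was the lower gene (0.705 and 0.585 against 3.19 and 1.82 CPM), and Ifi44 was among the higher ones (4.87 and 3.50 against 1.69 and 0.758 CPM). Mitochondrially encoded genes had a median of -0.81, which was -0.31 without P6H55-12. In that library mt-Atp8, a subunit of ATP synthase, reached 323 CPM, against 28.3, 27.6 and 35.3 CPM in P6H63-7, P6H63-8 and P6H55-7. This was the library with the suffix RNA2, and the part of that in its values was not tested.

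Among protein-coding genes of at least 10 CPM, the 10 lowest differences included several receptors of myeloid cells. Besides Siglech, P2ry12 and S100a8, they held BC035044 (4.07 and 2.77 against 46.8 and 41.4 CPM), the CD52 antigen gene Cd52 (1.98 and 1.94 against 23.1 and 24.3 CPM) and Havcr2, which encodes the checkpoint receptor TIM-3 (13.8 and 8.57 against 122 and 130 CPM). They also held the actin-linker gene Parvg, the chemokine gene Ccl12 and Apob (11.4 and 9.34 against 108 and 112 CPM), which encodes an apolipoprotein. Cd300lf, an inhibitory receptor gene, had the lowest value (-3.71) but varied within a litter, with 1.65 and 1.04 CPM in P6H63, 50.9 CPM in P6H55-7 and 5.99 CPM in P6H55-12. Among the HIE pups it was at 48.8 CPM in N5-3 and at most 7.48 CPM in the other 3.

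On the higher side, the 10 largest differences came from genes of several sources. Lrp2, the endocytic receptor megalin of ependymal and choroid epithelium, gave 22.4 and 24.0 CPM in P6H63 and 4.29 and 4.61 CPM in P6H55 (2.38). Barhl1, a homeobox gene of cerebellar granule cells, gave 72.9 and 91.7 CPM against 13.6 and 20.9 CPM, and the homeobox gene Lhx1 gave 35.4 and 48.4 CPM against 6.79 and 12.1 CPM. Dnah6, a dynein heavy chain of motile cilia, gave 283 and 259 CPM against 58.4 and 65.4 CPM (2.13), and Dlec1 gave 72.7 and 83.8 CPM against 16.3 and 17.5 CPM. Mfap4, a protein of elastic fibres, gave 89.3 and 105 CPM against 17.4 and 23.5 CPM, and the adhesion gene Mdga1 gave 118 and 140 CPM against 24.6 and 30.7 CPM. The remaining 3 were Capn6, Disp3 and the retinoic acid-binding gene Crabp2.

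The promoters of the called genes were read from GRCm39 as the 250 bases before the start of the Ensembl canonical transcript. The letters GAGGAAGT, bound by the myeloid factor PU.1, were found on either strand in 87 of 1765 promoters of lower protein-coding genes (4.93%), 49 of 3456 of higher genes (1.42%) and 340 of all 16261 (2.09%). The letters GTTGCCATG, bound by the RFX factors of ciliated cells, were found in 2 promoters of lower genes (0.113%), 24 of higher genes (0.694%) and 79 in all (0.486%). Neither word contains the other, and a match is a description, not a site. Most promoters of either class held neither word, and those of P2ry12, Tmem119 and Cx3cr1 held neither. The 3 promoters below show named genes with a word, in capitals, 5′ to 3′ with the last base next to the start: S100a8 (chr3:90576035-90576284, plus strand) and BC035044 (chr6:128868090-128868339, minus strand) as lower genes with the PU.1 word, and Ccdc153 (chr9:44151723-44151972, plus strand) as a higher gene with the same word.
S100a8: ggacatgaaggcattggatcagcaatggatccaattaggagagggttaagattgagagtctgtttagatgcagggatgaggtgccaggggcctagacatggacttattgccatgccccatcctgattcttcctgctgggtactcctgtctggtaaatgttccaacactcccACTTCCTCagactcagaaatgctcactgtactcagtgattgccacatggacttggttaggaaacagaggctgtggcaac
BC035044: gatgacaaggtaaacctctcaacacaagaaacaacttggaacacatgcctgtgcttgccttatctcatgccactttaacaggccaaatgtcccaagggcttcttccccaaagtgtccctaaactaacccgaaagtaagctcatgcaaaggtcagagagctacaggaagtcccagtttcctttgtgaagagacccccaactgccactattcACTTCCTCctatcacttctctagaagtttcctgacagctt
Ccdc153: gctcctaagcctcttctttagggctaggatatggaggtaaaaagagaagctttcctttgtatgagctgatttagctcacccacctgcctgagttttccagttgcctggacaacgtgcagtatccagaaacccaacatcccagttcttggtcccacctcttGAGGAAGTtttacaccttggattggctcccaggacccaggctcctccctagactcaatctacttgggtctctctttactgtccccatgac

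The P14 animals, which the choice of litters did not use, allowed a test of whether the same genes followed the microglial level elsewhere. A microglia score, the mean log2 CPM of the 16 microglial genes, ran from 9.02 (P6H9-15, Hypoxia) to 10.05 (P4H1-6, HIE) over the 12 animals. The animals came in pairs from 6 litters by their name prefix, so they are not 12 separate litters, and the scores of a pair could be close (9.90 and 10.05 in P4H1). The slope of each gene on the score was tested by edgeR's quasi-likelihood test with treatment and cohort as covariates and without the litter. Cohort stands for the start of the name, P4H or P6H, which the sources used here do not define. All Hypoxia animals were P6H. The 16 genes of the score were fitted with the rest and left out of the counts. Of 21662 genes, 111 rose with the score (0.512%) and 41 fell (0.189%) at an adjusted p under 0.05. Of 2720 genes in the lower P7 class, 70 rose with the score and 0 fell, with 658 and 51 at an unadjusted p under 0.05, and DESeq2 gave 403 and 10. Of 3512 genes in the higher P7 class, 0 rose and 34 fell, with 24 and 1036 unadjusted, and DESeq2 gave 9 and 551. The lower class thus held 63.1% of the genes that rose and the higher class 82.9% of those that fell. With the litter as a block in place of treatment and cohort, a fit chosen after the data were seen, edgeR called 0 genes in either direction, with 432 positive and 21 negative slopes at an unadjusted p under 0.05 in the lower class and 12 and 268 in the higher class.

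These P14 counts were not stable against leaving out an animal. Without P4H1-6, P4H4-8, P6H7-16, P6H9-15, P6H12-14, P6H7-8 or P6H12-11 in turn, edgeR called 0 genes in either direction, with 3047 to 4144 at an unadjusted p under 0.05, and without P4H4-7 it called 0 and 1. Without P4H1-1 it called 7 and 1, without P6H8-8 it called 7 and 0, without P6H8-7 it called 65 and 19, and without P6H9-14 it called 353 and 286. The sign of the slope moved less. It was positive for 68.7% of the lower class (65.2% to 73.2% over the 12 fits with an animal left out), 13.5% of the higher class (12.2% to 19.1%) and 46.7% of all genes. With the litter as a block the shares were 68.9% and 16.7%, and with no covariates 56.9% and 40.4%.

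The genes named next are those with the smallest p at P14 in the fit without the litter, and none was called with the litter as a block. Coro1a, an actin regulator of white blood cells, had a slope of 1.36 ± 0.17 (SE, n = 12, edgeR adjusted p = 0.0284), and its P7 difference was -2.91. Cmtm7 (slope 1.29 ± 0.13) and the actin-binding gene Twf2 (1.10 ± 0.12) had the same adjusted p and were also in the lower class. Gm38431 and the junction gene F11r rose with the score and were in neither P7 class. Falling with the score were Egfr, the EGF receptor (-1.62 ± 0.22), Thbs4, a matrix protein (-3.05 ± 0.42), Coro2b (-1.67 ± 0.24) and Nfib, a transcription factor of glia (-1.97 ± 0.29), each with an edgeR adjusted p of 0.0375 and a P7 difference above 1. Kif1b, an axonal motor, fell with the score and was in neither class at P7 (0.65).

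**Figure D4:**
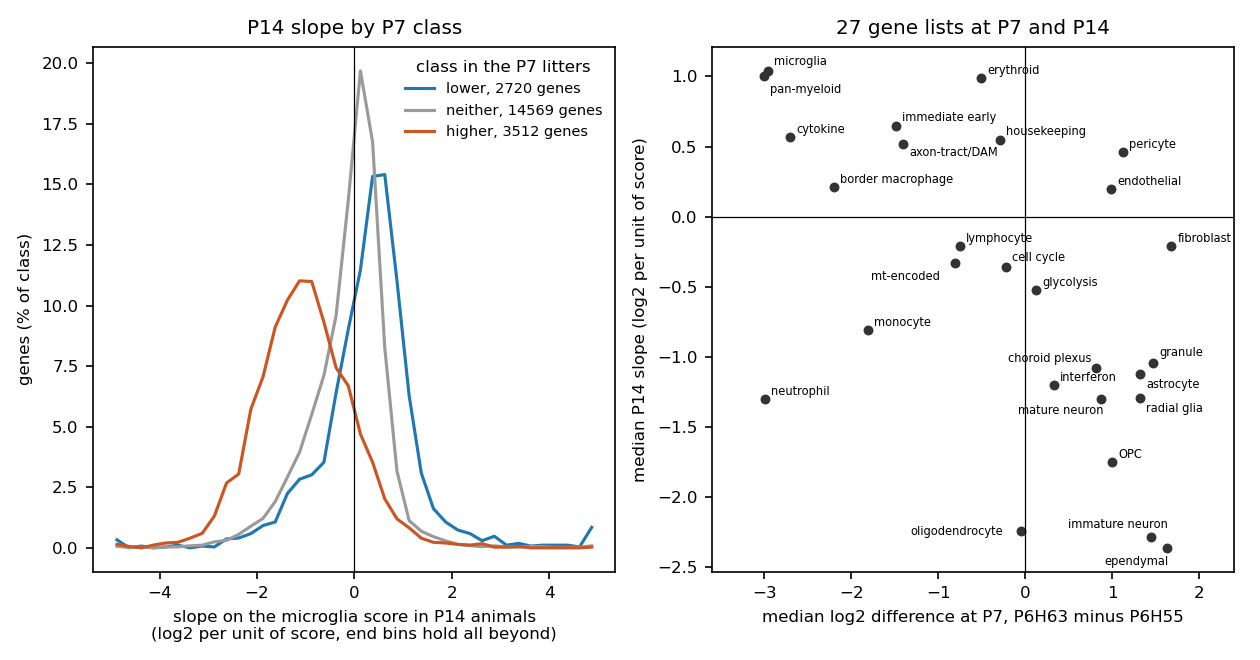
Left, distribution of the P14 slope on the microglia score (horizontal axis, log2 per unit of score) as a percent of the genes in each P7 class (vertical axis). Right, each of 27 gene lists by its median P7 difference (horizontal axis) and its median P14 slope (vertical axis); oligodendrocyte genes sit at -0.05 and -2.24, and endothelial genes at 0.99 and 0.20. The microglia list is the one the score was made of, so its slope is no separate measurement.

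By list, the order at P14 was not that of the P7 litters. Astrocyte genes had a median slope of -1.12, immature neuron genes -2.28 and ependymal genes -2.36, against a median of -0.06 over all genes. Oligodendrocyte genes, with a P7 median of -0.05, had a median P14 slope of -2.24, with all 13 below 0. Endothelial (0.20) and pericyte genes (0.46), with P7 medians of 0.99 and 1.12, had positive medians at P14, and fibroblast genes stood at -0.21. Neutrophil genes, lower in P6H63 with the microglial genes, had a median slope of -1.30 with all 9 below 0. The difference of these patterns between days was not tested, and list members are not independent replicates.

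Sex-linked genes were compared with the labels. In P6H63 they matched, with Xist at 68 counts in the library labelled male and 118685 in the library labelled female, and the Y gene Ddx3y at 6216 and 0 counts. In P6H55 the library labelled female (P6H55-12) had 20 counts of Xist, against 12 in the library labelled male. It had 0 counts of the Y genes Ddx3y, Uty, Kdm5d and Eif2s3y, and at 3 counts P6H55-12 allows each at most 0.0359 CPM on its unscaled library total. Kdm6a, which escapes X inactivation, was at 61.2 CPM there, against 51.6 and 68.2 CPM in the libraries labelled male and 85.6 CPM in P6H63-8. That library therefore lacked both Xist at the level of P6H63-8 and Y transcripts. HIE pup N5-3, labelled male, had 175936 counts of Xist and at most 2 counts of any of the 4 Y genes. Without P6H55-12, with the litter represented by P6H55-7 alone, 3364 genes were called lower and 5547 higher, and the medians were -3.17 for microglia and 1.57 for astrocyte genes.

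**Figure D5:**
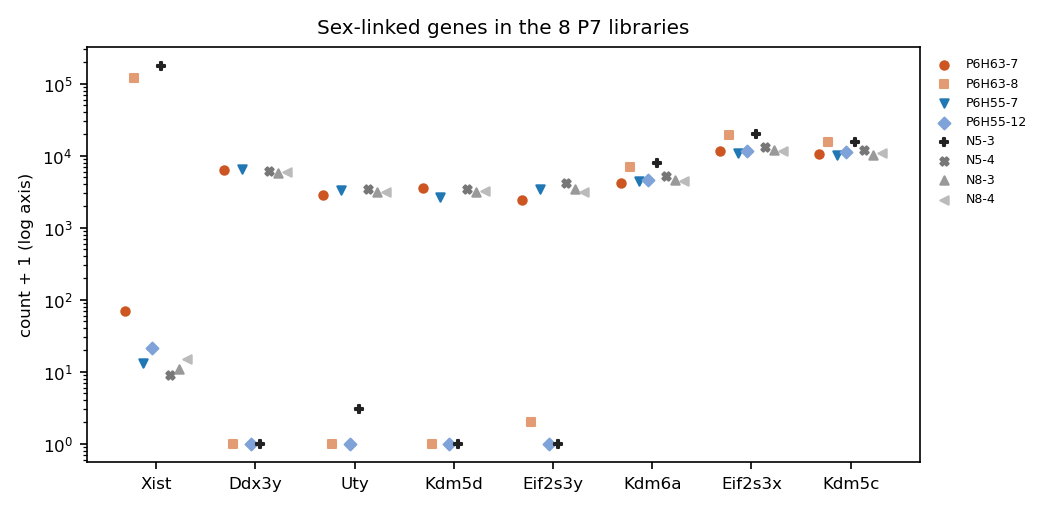
Counts plus 1 on a log axis (vertical) of 8 sex-linked genes (horizontal axis) in the 8 P7 libraries, 1 symbol a library. P6H55-12, labelled female, is at 20 counts of Xist and at 0 counts of the 4 Y genes Ddx3y, Uty, Kdm5d and Eif2s3y.

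Within litters, edgeR's quasi-likelihood test of the sex label over 23524 genes called 4 genes higher in the libraries labelled male (0.0170%) and 0 higher in those labelled female (0%), with 1210 and 1592 at an unadjusted p under 0.05 and 157 and 143 by DESeq2. The 4 genes were Ddx3y, Eif2s3y, Kdm5d and Uty (edgeR adjusted p from 0.00135 to 0.00157). Xist was not among them. The fit had 1 residual degree of freedom, and the low-Xist library P6H55-12 is 1 of the 2 on its female side.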

How the data were processed

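Whole brains were dissociated, CD11b+ cells were enriched on magnetic beads, and stranded total RNA libraries were made after removal of ribosomal RNA. Per the submitters' processing notes and the study's methods, the authors mapped reads to GRCm39 with STAR and counted genes with RSEM, and deposited expected counts per gene that are not scaled for depth. RSEM divides reads among similar genes, so near-identical genes are uncertain, and its strand setting is not given in the sources used here. Of 56691 genes, 56017 matched GENCODE M39 and 674 did not.

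Expected counts were rounded and scaled by TMM over the 4 control libraries (edgeR 4.0.16, R 4.3.3). HIE values were put on that scale. CPM is the count scaled by the library total multiplied by its TMM factor, so the CPM totals differ between libraries. The factors were 1.13 in P6H63-7, 1.10 in P6H63-8, 0.888 in P6H55-7 and 0.901 in P6H55-12. Log2 CPM used a prior count of 2. Genes passed edgeR's filter on low counts by litter. A gene was called when the litter means differed by at least 1 on the log2 scale (2-fold) and the litters did not overlap. Tests of that contrast were run only as alternative rules for counting called genes. They are not used as a result, because the litters were selected on microglial genes. The P14 slope and the sex label were tested by edgeR's quasi-likelihood test across all genes with Benjamini-Hochberg adjustment at 0.05, and DESeq2 1.42.0 was an alternative. At P14, libraries of the same animal were summed. The 2 tests were tried on simulated data in which 200 genes above a count limit were changed, up or down. For the P14 slope test, these genes had a slope of 2 on the log2 scale per unit of score, while the scores ran only from 9.02 to 10.05. For the sex label test, they differed by 2 on the log2 scale. At P14 the counts were drawn for each animal separately, with no litter effect put in. The P14 slope test recovered 111 of them (55.5%) and called 4 unchanged genes. The sex label test recovered 188 (94.0%) and called 39 unchanged genes.

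The gene lists and the litters were chosen with earlier results of these data known. Named genes were the 3 markers, from each list the 2 with the highest mean CPM and those with the lowest and highest difference, the 10 largest differences each way among protein-coding genes of at least 10 CPM, the 3 genes nearest the limit on each side, the 5 smallest p-values each way in each test, and sex-linked genes, and not all of them are printed. Others named were chosen after their values were seen. Promoters came from GRCm39 with GENCODE M39. Precision is limited by 2 pups a litter, and limits from 3 counts cover counting error only. Alternatives covered scaling, filter, fold limit, prior count, mitochondrial genes, test, score, covariates, repeated libraries, the litter at P14 and leaving out each library or animal.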

Additional observations from a re-analysis of the deposited data

Results flagged for a closer look

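In 137 named genes examined in the 4 HIE pups, 11 had a pup far from the other 3 by Dixon's criterion for 4 samples, where chance alone gives about 1 in 20. Of these, 7 had N5-3 apart, and all of those 7 except Cd300lf were sex-linked genes, which vary together. The 11 flags are therefore not separate trials, and their number is not compared with the rate for chance. N5-3 had 48.8 CPM of Cd300lf against 4.95 to 7.48 CPM in the others. The same pup, labelled male, had 2564 CPM of Xist against 0.118 to 0.221 CPM, 0 CPM of Ddx3y against 87.5 to 93.8 CPM, 0.0291 CPM of Uty against 47.3 to 50.6 CPM and 0 CPM of Kdm5d against 47.8 to 51.2 CPM. It also had 116 CPM of Kdm6a against 69.5 to 76.2 CPM and 290 CPM of Eif2s3x against 183 to 191 CPM. N8-4 was apart with 3.92 CPM of Chil3 against 1.12 to 1.24 CPM, 68.0 CPM of Ngp against 26.9 to 31.5 CPM and 88.7 CPM of Vtn against 75.0 to 76.4 CPM. N8-3 was apart with 416 CPM of Herc2 against 488 to 501 CPM.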

How the results depend on the processing

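The medians of the microglia, pan-myeloid, border-associated macrophage, cytokine and immediate early lists stayed below 0, and those of the astrocyte, ependymal, endothelial and fibroblast lists above 0, under every scaling, filter, prior count and leave-out tried. With library size alone, where the median of all genes was 0.31, the medians were 1.19 for mature neuron, 1.79 for cerebellar granule, 1.31 for endothelial, 2.0 for fibroblast and -1.17 for immediate early genes. With a mean CPM of at least 1, 2015 genes were called lower against 3132, and with a 4-fold limit 1078 were lower and 379 higher. Leaving out a control library gave medians from 0.54 to 1.14 for mature neuron, -2.56 to -1.96 for border-associated macrophage, 1.31 to 1.74 for cerebellar granule and 1.56 to 1.77 for fibroblast genes. Choroid plexus ran from 0.27 to 1.37, oligodendrocyte genes from -0.39 to 0.24. Lymphocyte genes had -3.07 with a mean CPM of at least 1 against -0.75, since fewer genes entered.

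At P14, genes rising and falling with the score numbered 111 and 41. They were 1 and 1 with a score of the 3 markers, 897 and 658 with no covariates, 173 and 63 with DESeq2 size factors, 1047 and 862 with the DESeq2 Wald test, 8 and 7 with no filter, and 0 and 0 with the litter as a block, an alternative chosen after seeing the data that left 1942 genes at an unadjusted p under 0.05. Leaving out an animal gave 0 to 353 and 0 to 286. For the sex label, 4 and 0 genes became 9 and 1 with DESeq2 size factors, 157 and 143 with the DESeq2 Wald test, and 289 and 502 with no filter. The cause of these changes was not tested. No paired analysis was possible because the litters share only the number 7, which names a pup and pairs nothing. With 2 pups a litter, differences within the spread of a litter were not detectable.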

Other observations

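Gene families outside the fixed lists were gathered by symbol among the protein-coding genes that passed the filter, and they were chosen after their values were seen. Differences are P6H63 minus P6H55, and the counts stand beside 13.3% of all genes called lower and 19.0% called higher. On the microglial side were 10 of 12 Toll-like receptors (median -2.35, Tlr7 lowest at -3.11), 8 of 9 CD300 receptors (-2.87), 8 of 9 MS4A membrane proteins (-2.47), 5 of 6 Fc receptors (-2.67), 10 of 14 cathepsins, the proteases of lysosomes (-1.70, Ctss lowest at -3.32), and 16 of 25 MHC H2 genes (-1.47), each with 0 called higher. Of 8 Siglec lectins, 6 were lower and 1 was higher (-2.41).

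On the other side were 14 of 15 axonemal dynein heavy chains, the motors of motile cilia (median 1.82), 40 of 47 cilia and flagella associated proteins (1.55), all 12 genes of the dynein assembly and regulatory complexes (1.71), 11 of 18 ADAMTS proteases, which cut the matrix (1.42), 11 of 15 Hox genes (1.87) and 9 of 15 Wnt ligands (1.22), with 0 called lower in each. The Hox genes were low, and the one with the highest mean, Hoxb3, was at 1.83 and 1.46 CPM against 0.25 and 0.718 CPM. Of 44 collagens, 28 were higher and 1 lower (1.17), and of 18 Sox factors 14 were higher and 1 lower (1.27). Of 16 GABA-A receptor subunits, 7 were higher (0.85), and of 58 clustered protocadherins 21 (0.89). Of 18 ionotropic glutamate receptors, 4 were higher (0.71), which is near the share of 19.0% over all genes.

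Other families went both ways or neither. P2 purinergic receptors had 9 of 15 lower, from P2ry12 at -3.46, and 3 higher, up to P2rx6 at 1.98. Of 88 potassium channels, 38 were higher and 6 lower (0.94), and of 10 guanylate-binding proteins 4 were higher and 1 lower (0.29). The 37 complex I subunits had a median of 0.00 with 0 called either way. Of 38 proteasome subunits, 4 were lower (-0.15), the lowest being the immunoproteasome subunit Psmb8 at -2.18. Of 79 cytoplasmic ribosomal protein genes, 17 were lower (-0.81) and 0 higher.

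In the P14 animals, some families had slopes on the microglia score on the side of their P7 difference. The slope was negative in 13 of 15 dynein heavy chains (median -2.54), 44 of 47 cilia and flagella associated proteins (-1.98) and all 15 GABA-A receptor subunits tested (-1.49), and positive in 11 of 14 cathepsins (0.50) and 77 of 79 ribosomal protein genes (0.55). Over all genes the slope was positive in 46.7%. Other families were more evenly split. Positive slopes were found in 4 of 8 MS4A genes (-0.01), 14 of 25 MHC H2 genes (0.23), 4 of 7 Siglec lectins (0.17) and 8 of 18 ADAMTS proteases (-0.30). The medians of the MHC H2, Siglec and ADAMTS genes were still on the side of their P7 difference. Proteasome subunits (37 of 38 positive, 0.40) and complex I subunits (32 of 37 positive, 0.17), with P7 medians near 0, also lay above 0 at P14. Only 2 Hox genes passed the P14 filter. Members of a family are not independent of each other, and no family was tested.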
